A study of Mus musculus with 6 samples.

Results

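Of the 1 kb windows that touched the ends of genes, 791 were highly methylated in mouse blood stem and progenitor cells, and these windows are described here. They were selected on their own methylation level. The genome was divided into windows of 1000 bases, and the 24778 windows on chromosomes 1 to 19 with at least 5 cytosine positions read in all 6 libraries were kept. Of these, 15209 lay within 1 kb of either end of a RefSeq protein-coding or lncRNA gene and are called gene-end windows. The level of a window was the mean over its positions of the percentage of reads with a methylated cytosine, averaged over the 6 libraries. A level over 80% chose the 791 members, which were 5.20% of the gene-end windows and 3.19% of all windows. The level itself is therefore given as a description with no test. Another 616 gene-end windows were at 20 to 80% and 13802 under 20%, called partly and weakly methylated.

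The DNA came from 3 cell types sorted from bone marrow of male C57BL/6 mice aged 7 to 10 months. These were long-term stem cells (LT-HSC, Lin- Sca+ Kit+ CD150+ CD48-), short-term stem cells (ST-HSC, CD150+ CD48+) and multipotent progenitors (MPP, CD150-). Control mice were IDH1+/+ VavCre+ littermates and KI mice were IDH1+/lsl VavCre+, so that Cre under the blood-cell promoter Vav was present in both and the Idh1 knock-in allele only in KI. Each combination of genotype and cell type was 1 library, made from marrow pooled from 6 mice per group. Whether LT-HSC, ST-HSC and MPP of a genotype shared a pool, and so whether they vary as separate animals would, is not stated by the labels. Methylation gives no marker expression, so the cell types rest on the labels. The lanes in the deposited names differed between the genotypes, so that lane and genotype cannot be told apart.

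DNA methylation in mammals sits mostly on the cytosine of CpG pairs. CpG-rich gene starts are usually free of it, while gene bodies, gene ends and CpG-poor sequence usually carry it. A small set of genes used in germ cells is kept silent in body tissues with methylated CpG-rich starts. IDH1 makes 2-oxoglutarate, the cofactor with which TET enzymes oxidise methylated cytosine, and bisulfite sequencing reads methylated and hydroxymethylated cytosine alike.

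The starts of some members are shown first, because they let a reader see what a methylated gene start looked like in these data. They are reference sequence of 300 bases, from 250 bases before to 50 after the start, credited to RefSeq (GRCm38.p6, the same build as mm10), written 5′ to 3′ on the strand of the gene. Capitals mark each CpG with at least 1 position read in all 6 libraries. Germ-cell genes come first. Ddx4 encodes a germ-cell RNA helicase (chr13:112652261-112652560, minus strand), and Mael a protein of the pathway that silences transposons in the germ line (chr1:166238695-166238994, minus strand). Hormad1 (chr3:95559427-95559726, plus strand) and Sycp1 (chr3:102936051-102936350, minus strand) encode proteins of the meiotic chromosome axis and synaptonemal complex, and Slc25a31 a testis form of the mitochondrial ADP/ATP carrier (chr3:40708621-40708920, plus strand).
Ddx4: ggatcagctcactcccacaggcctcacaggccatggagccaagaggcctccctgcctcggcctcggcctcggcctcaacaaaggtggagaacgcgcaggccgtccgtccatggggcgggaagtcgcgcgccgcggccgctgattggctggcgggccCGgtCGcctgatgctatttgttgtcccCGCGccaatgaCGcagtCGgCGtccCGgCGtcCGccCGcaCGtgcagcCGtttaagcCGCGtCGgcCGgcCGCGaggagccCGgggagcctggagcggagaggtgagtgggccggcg
Mael: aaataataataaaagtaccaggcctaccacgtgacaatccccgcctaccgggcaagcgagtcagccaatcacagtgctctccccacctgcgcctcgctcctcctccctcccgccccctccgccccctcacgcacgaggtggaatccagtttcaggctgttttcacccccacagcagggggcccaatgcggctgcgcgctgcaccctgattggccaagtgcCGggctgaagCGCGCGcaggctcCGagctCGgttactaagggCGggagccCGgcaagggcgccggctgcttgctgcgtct
Hormad1: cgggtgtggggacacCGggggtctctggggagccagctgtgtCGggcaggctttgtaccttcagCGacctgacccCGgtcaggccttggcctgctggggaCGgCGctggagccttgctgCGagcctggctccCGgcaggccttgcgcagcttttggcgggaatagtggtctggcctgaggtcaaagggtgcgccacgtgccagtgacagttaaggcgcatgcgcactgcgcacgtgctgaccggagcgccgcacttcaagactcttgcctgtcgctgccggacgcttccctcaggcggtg
Sycp1: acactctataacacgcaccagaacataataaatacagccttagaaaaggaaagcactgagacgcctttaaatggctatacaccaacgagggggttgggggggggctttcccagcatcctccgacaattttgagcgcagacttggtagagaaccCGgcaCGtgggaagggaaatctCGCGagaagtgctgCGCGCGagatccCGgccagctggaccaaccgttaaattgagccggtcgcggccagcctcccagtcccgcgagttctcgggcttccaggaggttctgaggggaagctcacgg
Slc25a31: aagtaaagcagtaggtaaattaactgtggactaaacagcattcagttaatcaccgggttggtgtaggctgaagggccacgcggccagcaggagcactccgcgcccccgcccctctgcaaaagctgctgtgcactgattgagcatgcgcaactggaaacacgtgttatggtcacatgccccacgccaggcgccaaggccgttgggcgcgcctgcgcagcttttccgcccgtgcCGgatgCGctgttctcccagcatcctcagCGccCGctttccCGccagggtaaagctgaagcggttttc

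The other starts stand for an imprinted gene, a blood gene and a window that differed between cell types. Mcts2 is an imprinted retrogene (chr2:152686898-152687197, plus strand), Rhd encodes a red-cell surface protein (chr4:134864286-134864585, plus strand), and Alpk3 encodes a kinase of heart and skeletal muscle (chr7:81057350-81057649, plus strand).
Mcts2: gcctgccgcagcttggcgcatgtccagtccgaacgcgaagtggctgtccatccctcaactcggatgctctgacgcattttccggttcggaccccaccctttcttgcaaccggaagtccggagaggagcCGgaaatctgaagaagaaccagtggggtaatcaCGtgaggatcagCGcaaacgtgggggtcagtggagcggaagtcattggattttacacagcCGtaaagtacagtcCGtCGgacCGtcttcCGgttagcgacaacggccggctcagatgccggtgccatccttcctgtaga
Rhd: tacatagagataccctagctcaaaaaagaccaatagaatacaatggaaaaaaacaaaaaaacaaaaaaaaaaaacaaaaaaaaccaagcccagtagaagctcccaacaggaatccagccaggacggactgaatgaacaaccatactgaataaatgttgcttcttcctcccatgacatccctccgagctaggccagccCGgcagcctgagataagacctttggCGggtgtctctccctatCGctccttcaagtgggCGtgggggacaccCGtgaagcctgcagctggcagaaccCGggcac
Alpk3: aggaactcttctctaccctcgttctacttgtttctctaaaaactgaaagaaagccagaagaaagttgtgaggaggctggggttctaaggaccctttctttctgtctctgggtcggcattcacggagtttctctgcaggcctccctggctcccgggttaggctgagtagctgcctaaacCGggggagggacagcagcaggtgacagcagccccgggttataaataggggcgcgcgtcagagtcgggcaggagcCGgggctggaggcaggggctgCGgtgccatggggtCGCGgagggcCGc

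Over the CpGs in capitals, the level of these sequences was 88.4% for Ddx4 at 35 positions, 96.5% for Mael at 14 and 96.2% for Hormad1 at 13. It was 87.7% for Sycp1 at 8 positions, 98.5% for Slc25a31 at 5 and 97.3% for Mcts2 at 8. Rhd stood at 90.8% at 6 positions and Alpk3 at 82.5% at 11. A CpG read on both strands counts as 2 positions, which is why Ddx4 had 20 CpGs in capitals for its 35 positions.

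Windows at the far ends of genes, where transcription stops, were members far more often than windows at starts. Strand was taken from the promoter table, which covered 25748 of 33073 genes. Of 924 windows near a far end only, 358 (38.7%) were members, against 232 of 10414 windows near a start only (2.23%). The cumulative plot of window levels for both kinds shows this gap. Of all members, 45.3% were near a far end only and 29.3% near a start only. Windows near a start of one gene and a far end of a gene held 61 members of 1052 (5.80%), and windows near genes without a strand held 140 of 2819 (4.97%). Counted by gene, 397 of 1344 measured far ends of protein-coding genes had a member (29.5%) and 174 of 8391 of their starts (2.07%). Among lncRNA genes the shares lay nearer each other, with 62 of 494 far ends (12.6%) and 133 of 1623 starts (8.19%).

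**Figure D1:**
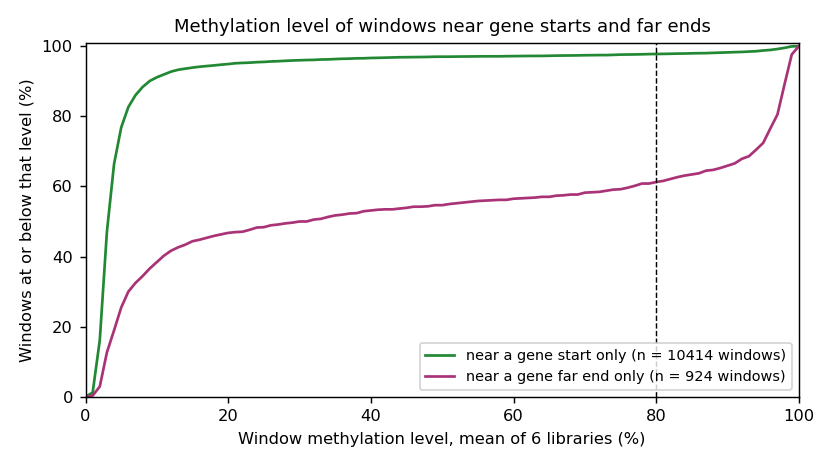
Cumulative share of windows (y axis, %) at or below a methylation level (x axis, mean of 6 libraries, %), for windows near a gene start only and near a gene far end only. The dashed line is the 80% threshold, above which lie 2.23% of the start windows and 38.7% of the far-end windows.

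The 791 windows touched 897 genes, 660 protein-coding and 237 lncRNA, of 13421 genes with a measured end. A gene end lay inside 277 of them, under 500 bases away from 259 and at least 500 bases away from 255. Of all members, 615 touched 1 gene end and 176 several. They were sparsely read, with a median of 6 positions per window against 19 in weakly methylated gene-end windows, and 251 members (31.7%) had the minimum of 5. Another 143 had at least 10. A neighbouring window was also a member for 50. The share of gene-end windows that were members ran from 3.35% on chromosome 16 to 7.72% on chromosome 17.

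Genes with a methylated far end mostly had an unmethylated start, as measured genes did in general. For 239 genes with a member at the far end the start was measured in other windows. The median start level was 3.30% (quartiles 2.40 and 5.16%), and the per-library medians were 3.24% ± 0.424 (SD, n = 6). Over all 10014 measured starts the median was 3.20%. Of the 239 starts, 218 (91.2%) were under 20%, beside 93.9% of all measured starts. Another 18 were at 20 to 80% and 3 over 80%. Zfpm1, which encodes the GATA1 cofactor FOG-1, had 95.7% at its far end and 1.87% at its start. Hcn2, a pacemaker channel, had 86.7% at its far end and 2.62% at its start. Separate member windows at both ends were found in 5 genes, named after their values were seen. At the start, averaged over all its windows, Cyp2w1 had 94.2%, Lsmem2 95.5% and Tekt2, which encodes a sperm-tail protein, 88.0%. Plscr3 and Trip6 had averages of 44.0 and 44.5% there, since their starts also held less methylated windows. The reverse could hardly be measured. Only 19 of the 307 genes with a member at the start had another window at the far end, with a median of 11.7%, and 4 of these were over 80%.

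**Figure D2:**
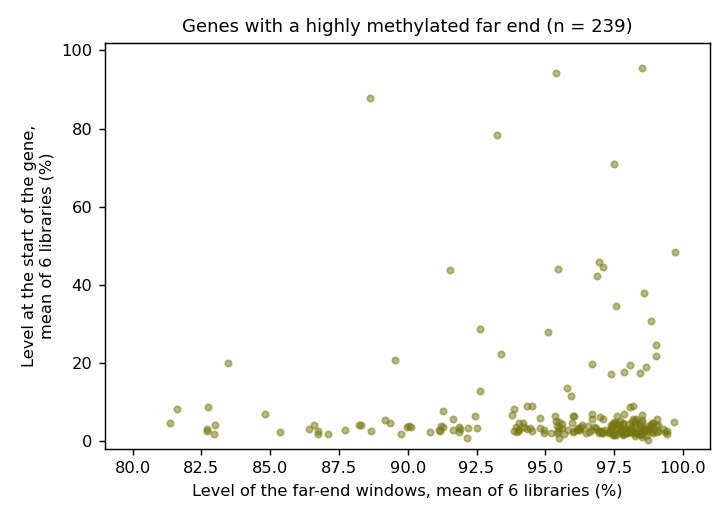
Level of the highly methylated far-end windows (x axis, %) against the level at the start of the same gene (y axis, %) for 239 genes, each point 1 gene and each value the mean of 6 libraries. Of these starts, 218 (91.2%) lie under 20% whatever the level of the far end, beside 93.9% of all measured starts.

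A methylated window at a start did not always cover the whole start. Of the 307 genes with a member at the start, 249 had only member windows there and 52 also had a weakly methylated window within 1 kb of the same start. Dazl, an RNA-binding protein of germ cells, had windows of 98 and 98.9% and another of 3.07% at 20 positions. Vpreb1, part of the surrogate light chain of B-cell precursors, had 98.4% at 5 positions, 255 bases from the start. That window also contains the far end of this gene. Another window, 746 bases from the start, had 3.58% at 20 positions. Of 459 genes with a member at the far end, 423 had only member windows there and 22 also a weakly methylated one.

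The level was high and narrow. The median over members was 96.6% (quartiles 93.4 and 98%), 673 (85.1%) were over 90% and 519 (65.6%) over 95%. The mean over the 791 windows was 94.7% in Control LT-HSC, 93.5% in Control ST-HSC and 95% in Control MPP. It was 95%, 95% and 95.7% in KI LT-HSC, ST-HSC and MPP. By genotype this came to 94.4% ± 0.771 in Control and 95.2% ± 0.403 in KI (SD over 3 libraries, 1 per cell type). Control ST-HSC was the lowest library and KI MPP the highest. The libraries differed in how many windows stood at exactly 100%, with 155, 47 and 236 in Control and 81, 40 and 53 in KI, both listed as LT-HSC, ST-HSC, MPP. The reads behind a window were similar, with medians of 374, 285 and 297 in Control and 329, 239 and 333 in KI. Reads of a window are summed over its positions here and below, so a read that covers several positions counts at each. Values of single windows below follow the same order of cell types. Whether the number of distinct DNA molecules had a part in those windows at 100% was not tested.

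**Figure D3:**
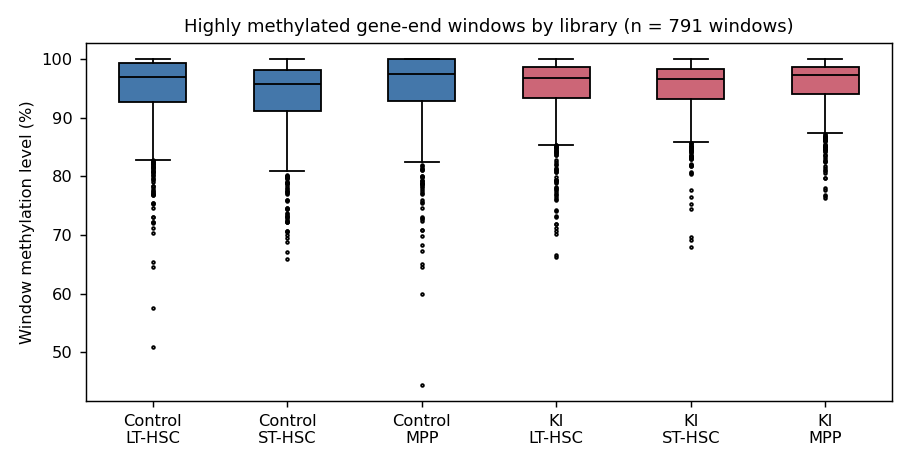
Methylation level (y axis, %) of the 791 windows in each of the 6 libraries. Boxes span the quartiles with the median as a line, whiskers reach the last window within 1.5 box lengths and points are the windows beyond. Medians lie between 95.8 and 97.4%, and single windows reach down to 44.4% in Control MPP.

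Most members were high in every library, and a few were not. The highest and lowest library of a window were a median of 6.59 percentage points apart. Of the 791, 693 were at least 80% in every library, 236 at least 95%, and 98 under 80% in at least 1. Of 48 windows with a range of 20 points or more, the lowest library was Control LT-HSC in 9, Control ST-HSC in 12 and Control MPP in 15. It was KI LT-HSC in 9, KI ST-HSC in 2 and KI MPP in 1. The largest range, 49.995 points, was at the far end of Tmem88b (chr4:155781001-155782000, 6 positions), a window picked out after its values were seen. Control held 90.1, 94.4 and 44.4% there, and KI 90.6, 85.2 and 93.1%. Only Control MPP was low, with 98 reads.

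Positions that the rule did not use were methylated as well. Of the members, 542 held 3858 further positions that were read in some but not all libraries. On these, the Control libraries averaged 92.3, 90.8 and 91.9% and the KI libraries 93.1, 92.5 and 93.6%. Between 85.9 and 92.9% of the windows with such positions were over 80% on them in a library. The share was 12.3 to 18.2% in partly methylated and 0.150 to 0.603% in weakly methylated gene-end windows. These positions lie beside the ones that chose the windows and come from the same libraries.

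Within a window nearly all CpGs were methylated. The 6179 positions used had a median of 97.5%, 85% of them were over 90% and 1034 (16.7%) were at 100% in all 6 libraries. The strands gave like values at the 655 CpGs read on both, with a median difference of 1.85 points and 9 differences of 20 points or more. Only 29 positions, in 27 windows, were under 50%, and 8 under 20%. One of those 8, near Plscr3 (chr11, base 69847429), had 0 methylated reads in all 6 libraries, of 15 to 33 reads each, which allows a level of up to 9.09% in the deepest and 20% in the shallowest. Another lay inside the Sycp1 start shown above (chr3, base 102936149). The Control libraries had 0 of 27, 0 of 28 and 0 of 34 methylated reads, which allows up to 11.1, 10.7 and 8.82%. In KI LT-HSC it had 44 of 53 (83.0%, 95% Wilson interval 70.8 to 90.8%), in KI ST-HSC 2 of 49 (4.08%, 1.13 to 13.7%) and in KI MPP 4 of 45 (8.89%, 3.51 to 20.7%). So 1 library of 6 was methylated at that CpG, and intervals on reads cover counting error only.

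Among the 15 lists examined, germ-cell genes had the highest share of genes with a member. Of 15 measured genes of the germline and pluripotency list, 9 (60.0%) had a member, beside 897 of all 13421 measured genes (6.68%). All 9 had it at the start, of 13 starts measured, and none of the 13 starts had only weakly methylated windows. The lists were chosen with earlier results of these data known and carry no test. Tuba3b, a testis tubulin, had 99.2, 99.4 and 100% in Control and 98.9, 98.8 and 98.8% in KI. Mael had 92.1, 97.4 and 97.0% in Control and 98.7, 98 and 95.8% in KI. Hormad1 had 96.1, 98.4 and 98% in Control and 96.0, 93.2 and 95.3% in KI. These 3 starts were over 90% in every library.

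Ddx4, the germline start with the most positions (35), had 75.5, 89.6 and 88.9% in Control and 90.2, 90.8 and 95.4% in KI. Control LT-HSC was the only library under 80% there, and by this measure the ranges of the genotypes did not overlap. With reads pooled over the window they did, with 94.2% in Control MPP against 91.5% in KI ST-HSC. limma's KI minus Control test for this window, described below, gave an adjusted p of 0.825. Sycp1 had 87.5, 83.4 and 86.1% in Control and 96.1, 86.8 and 86.5% in KI. KI LT-HSC was the highest library, and it is the one that was methylated at the CpG described above. Slc25a31 had 93.9, 91.3 and 100% in Control and 97.4, 100 and 96.3% in KI. Dazl, Sohlh2 and Rpl10l, respectively an RNA-binding protein, a transcription factor and a testis paralogue of a ribosomal protein, had levels of 98, 98 and 96.4% in the window nearest the start.

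**Figure D4:**
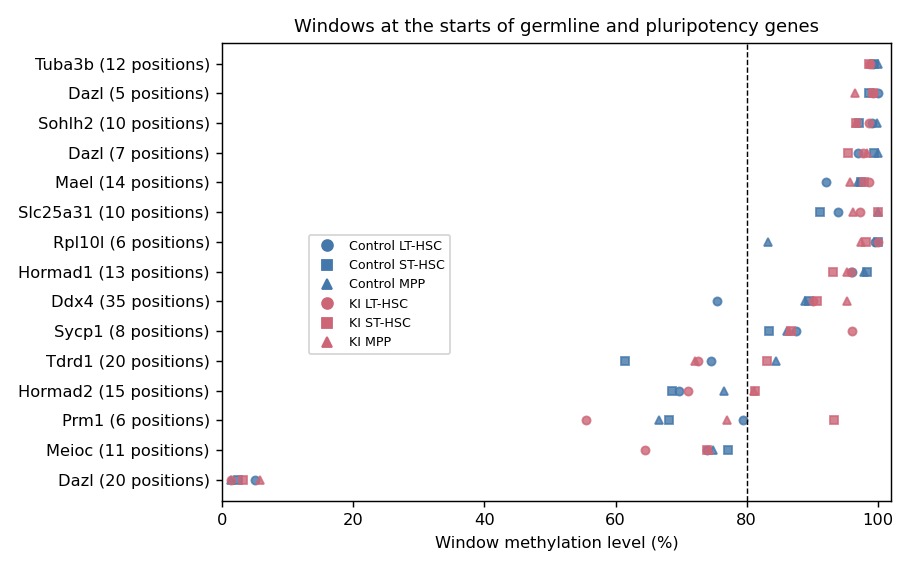
Methylation level (x axis, %) of each window at the start of a germline or pluripotency gene, 1 row per window with its number of positions, 1 point per library (colour for genotype, shape for cell type). Windows right of the dashed 80% line by their mean are members, the 4 partly methylated windows lie between 73.1 and 74.7% on average, and 1 Dazl window lies at 3.07%.

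The other 4 germline starts lay below the threshold. The means were 74.7% for Tdrd1 (20 positions), 74.7% for Hormad2 (15), 73.4% for Prm1 (6) and 73.1% for Meioc (11), encoding a Tudor protein, a meiotic axis protein, a protamine and a meiosis regulator. In the plot of germline starts Prm1 is the most spread of these, from 55.6% in KI LT-HSC to 93.3% in KI ST-HSC.

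Blood genes differed by list. None of 20 measured regulators of stem cells and blood formation had a member, and 17 of their 19 measured starts, among them Kit, Meis1, Tal1 and Gata2, were weakly methylated. The exceptions were Gfi1b and Vav1, at 43.4 and 27.0%. Of 13 lymphoid genes 6 had a member, within 1 kb of the start in Lat, Vpreb1 and Cd37. The start of Lat, the adaptor of the T-cell receptor, had 95.1, 97.5 and 99.9% in Control and 99.5, 98 and 96.3% in KI, at 17 positions. Zap70, a T-cell kinase, had 93.1% at its far end and Gata3, a T-cell transcription factor, 97.5%. The window of Cd6, a T-cell surface protein without a strand in the table, had 93.6%.

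Of 16 erythroid and megakaryocyte genes 3 had a member, and of 4 myeloid genes only Elane, neutrophil elastase, with 98.7% at its far end. Zfpm1 had the most positions of any member, 72, and its far end held 95.7, 95.6 and 94.4% in Control and 95, 96.4 and 97.0% in KI. Rhd had 96.7, 70.7 and 96.0% in Control and 93.9, 89.2 and 98.1% in KI, and was low only in Control ST-HSC. Trim10, a protein of red-cell maturation, had 92.9, 72.5 and 69.8% in Control and 97.4, 83.6 and 90.4% in KI, 505 bases from its start.

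Genes of other tissues were mixed. Of 40 epidermal and epithelial genes 11 had a member, with 99.0% for the keratin Krt18, 92.2% for the junction protein Tjp3 and 90.2% for the claudin Cldn4. Of 118 ion channels and neurotransmitter receptors 7 had one. Among these Grin3b, an NMDA receptor subunit, had 98.1% over 46 positions at its far end and 4.47% at its start. Kcns1 had 98.2%, Drd5, a dopamine receptor, 82.1% and Chrna1, a subunit of the muscle acetylcholine receptor, 98.3%. Of 8 sensory receptors 3 had a member (Taar4 83.2%, Tas1r2 82.0%, Vmn2r69 94.6%), of 10 liver and plasma genes 3 (Itih4 98.6%, Cyp2w1 95.4 and 94.2%, Apom 88.0%), and of 13 muscle genes Trim63 with 81.0%.

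The homeobox, zinc finger and housekeeping lists stood near or below the share for all genes. Of 121 homeobox and PAX genes 5 had a member, with 91.7% for Hoxb3, 88.7% for Hoxa4, 90.3% for Hoxa3 and 98.9% for Pou5f2. The fifth, the lncRNA Hoxb3os, had 98.2%. Of 260 zinc finger genes 19 had one, of which Zbtb7a (94.4%), Zfp64 (97.7%), Zfp251 (98.6%) and Zbtb22 (96.8%) had the most positions. Of 210 ribosomal, proteasome and respiratory chain genes 6 had one, and among these Rpl39l (96.6%), Rpl3l (83.2%) and Rpl10l are tissue-restricted paralogues. The others with most positions were Mrpl2 (90.1%) and Mrps7 (97.8%), both at the far end. Of 18 genes of the methylation, TET and IDH list 1 had a member, the far end of Dnmt1, the maintenance methyltransferase, with 97.9%.

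Of 29 imprinted genes 3 had a member at the start. Zdbf2 had 100, 96.6 and 95.6% in Control and 99.2, 88.9 and 95.2% in KI. Mcts2 had 99.8, 97.7 and 98.3% in Control and 91.2, 98.8 and 98% in KI. Mest, at 80.3%, was just inside the threshold.

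The sequence of methylated starts was poorer in CpG than that of the weakly methylated starts measured. Of the promoters in the RefSeq table, 7603 had at least 3 shared positions within their 300 bases, and 114 of these were over 80%. Only 53 of the 114 touched a member window, so this set is not the members alone. Their median observed over expected CpG ratio was 0.457, with a GC content of 56.7%, against 0.849 and 66.7% in the 7360 promoters under 20%. All 31396 promoters of the table, most of them not measured here, had a median ratio of 0.389 and 53% GC, below the methylated set. The letters TCCCGC, the core of an E2F-type motif, were found on either strand in 14.9% of the 114, in 46.2% of the 7360 and in 20.2% of all 31396 promoters. The E-box CACGTG was found in 11.4, 10.4 and 7.14% and TATAAA in 7.89, 3.80 and 13.6% of the same sets. Both strands were searched, and such a match describes the letters only. Of 146 promoters that touched a member, 55 had at least 3 positions, and 53 of the 55 were over 80%. This share follows largely from the rule, which chose windows over 80%.

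A few highly methylated promoters were nevertheless rich in CpG. Of 5193 measured promoters with a ratio of at least 0.75, a value chosen after seeing the data, 10 (0.193%) were over 80%. They belonged to Mael (0.780), Slc25a31 (0.826), Rpl39l (0.836), Hsf5 (0.851), Sycp1 (0.874), Ctnnd1 (0.874), Ddx4 (0.978), Mcts2 (0.991), 4933428G20Rik (1.01) and Gm15609 (1.04), given with their ratio. Hsf5 encodes a heat shock factor of the testis and Ctnnd1 the adhesion protein p120-catenin. The Ctnnd1 promoter overlaps that of Btbd18 on the other strand, whose ratio of 0.748 was just under the cut. Both had 98.3% at the same 10 positions, so this level cannot be assigned to 1 of the 2 genes. Of the germline genes, 7 had a promoter over 80%. In 6 of them, Ddx4, Mael, Hormad1, Sycp1, Slc25a31 and Rpl10l, the letters TCCCGC occurred, and in 5, the same without Rpl10l, CACGTG. In the seventh, Sohlh2, neither did.

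Between genotypes, the members as a whole differed little. The mean of KI minus Control over the 791 windows was 0.335 points for LT-HSC (SD over windows 5.18), 1.47 points for ST-HSC (5.03) and 0.683 points for MPP (5.52). The medians were 0, 0.882 and -0.238 points, so that in MPP the mean and the median had opposite signs. KI was higher in all 3 cell types in 124 windows (15.7%) and lower in all 3 in 88 (11.1%). Over all 24778 windows the shares were 22.1 and 6.35%, and over the 3166 gene-body windows above 80%, 12.5 and 10.9%. A window near 100% can hardly rise, and the part of this limit in the shares was not tested.

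Few members were far apart in every cell type. KI was at least 10 points higher in all 3 in 2 members, beside 0.9% of all windows, and at least 10 points lower in 0, beside 0.0525%. limma, fitted over all windows to log2 ratios (methylated over unmethylated reads) with cell type as a block, called 0 members higher, beside 0% of all windows, and 0 lower, beside 0.00807% (Benjamini-Hochberg adjusted p under 0.05). At an unadjusted p under 0.05 there were 34 members, 20 of them higher in KI, which is 4.30% of members against 7.01% of all windows. The lowest adjusted p among members was 0.587.

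The 2 recurrent windows were at Gas2l1, which encodes a protein linking actin and microtubules, and at the start of the lncRNA Gm45979. Gas2l1 (chr11:5064001-5065000, 19 positions) had 71.2, 81.1 and 74.6% in Control against 88.9, 91.9 and 87.9% in KI. All KI libraries were above all Control libraries, with a mean difference of 13.9 ± 3.49 points (SD over 3 cell types), a log2 ratio 1.55 higher (SE 0.47) and a limma adjusted p of 0.616. Gm45979 (chr7:30450001-30451000, 5 positions) had 82.3, 73.2 and 77.5% in Control against 94.5, 89.8 and 89.5% in KI, a mean difference of 13.6 ± 2.58 points with an adjusted p of 0.654. The genotypes did not overlap in either window.

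The largest mean difference upward was at the lncRNA 3110070M22Rik (chr13:119489001-119490000, 5 positions), 617 bases from its start and also near that of Tmem267. It had 83.3, 70.7 and 60.0% in Control and 91.5, 91.3 and 91.4% in KI, which is 20.1 ± 11.7 points, with a log2 ratio 2.02 higher (SE 0.53) and the lowest limma adjusted p of the members, 0.587. All KI libraries were above all Control libraries, Control MPP was the lowest, and Control MPP had 122 reads against 1098 in KI MPP. Rcn3, an endoplasmic reticulum calcium-binding protein, and Bcam, an adhesion receptor, were 13.4 ± 13.7 and 12.7 ± 10.4 points higher in KI at their far ends. At Rcn3 all KI libraries (83.0 to 95%) were above all Control libraries (66.0 to 82.9%), but not on pooled reads, with 86.3% in Control LT-HSC and 82.7% in KI MPP. At Bcam the genotypes overlapped, with 64.5 to 83.4% against 83.3 to 89.2%. On pooled reads they did not, with 83.0% in Control LT-HSC and 84.0% in KI ST-HSC.

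The largest differences downward in KI were smaller. At the start of the phosphatase gene Ptpn20 the window had 86.1, 93.7 and 100% in Control and 76.8, 91.4 and 80.6% in KI, a difference of -10.3 ± 8.63 points (limma adjusted p 0.719). The genotypes overlapped there. Gm12018 had 97.7, 97.8 and 98.4% in Control and 87.1, 90.9 and 85% in KI, and the genotypes did not overlap. The difference was -10.3 ± 3.22 points with a limma adjusted p of 0.627. On pooled reads it was -3.27, -9.26 and -16.7 points in LT-HSC, ST-HSC and MPP. The lncRNA Gm33326 differed by -8.98 ± 5.51 points, 1700001P01Rik by -8.69 ± 1.18 and Gm17266 by -7.91 ± 6.95.

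Single pairs of libraries differed at more windows. A two-sided Fisher's exact test on the summed reads of 2 libraries compares these libraries, not the genotypes. Its p-values are too small where reads are copies of 1 molecule or where a read counts at several positions. Calls needed 10 points of difference and an adjusted p under 0.01. The test called 26 members higher in KI in LT-HSC, beside 3.18% of all windows, and 20 lower, beside 1.28%. In ST-HSC it called 29 higher, beside 4.08%, and 6 lower, beside 0.456%. In MPP it called 36 higher, beside 4.74%, and 6 lower, beside 1.29%. As shares of the members these were 3.29, 3.67 and 4.55% higher and 2.53, 0.759 and 0.759% lower, near the share of all windows for the higher calls. In all, 108 members were called in at least 1 cell type. The share of all windows is not given for this count or for calls in several cell types. These counts are therefore not read as high or low.

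The calls that recurred across cell types are listed without a comparison to all windows. Gm45979 and Gas2l1 were called higher in all 3 cell types. Called higher in 2 were 6 windows, Fgf6, Gm40231, Krt5, Paqr6, Slc6a16 with Cd37, and 3110070M22Rik, and 2 were called lower in 2, Gm33326 and Hoxa4, all named after their values were seen where no rule named them. At Gm40231 the LT-HSC call was higher only by the mean over positions (14.5 points), and on the pooled reads that the test used KI was -11.1 points from Control. It was the 1 call among members with opposite signs by these measures, so this window counts as higher in ST-HSC only. The window shared by the starts of the transporter gene Slc6a16 and of Cd37, a tetraspanin of B cells, had 82.7, 70.5 and 81.2% in Control and 91.5, 84.3 and 94.3% in KI. All KI libraries were above all Control libraries there. Hoxa4 had 92.9, 91.6 and 94.4% in Control and 80.8, 76.6 and 95.7% in KI, so that KI was lower in both stem cell types and not in MPP.

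From LT-HSC to MPP the members also changed little on average. The mean difference between MPP and LT-HSC was 0.356 points for Control (SD over windows 6.95) and 0.704 points for KI (4.57), higher in MPP. The level was higher in MPP in both genotypes in 214 members (27.1%) and lower in both in 166 (21%), against 33.2 and 15.2% of all windows. Over gene-body windows above 80% the shares were 23.8 and 21.7%, and over intergenic windows above 80%, 22.6 and 22.9%. At least 10 points higher in both were 9 members, beside 1.43% of all windows, and at least 10 points lower in both 2, beside 0.359%. limma with genotype as a block called 0 members higher in MPP, beside 0% of all windows, and 0 lower, beside 0%. At an unadjusted p under 0.05 there were 56 members (7.08%, against 7.41% of all windows), 35 of them higher in MPP.

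The largest difference upward was at the far end of H2-DMa, which encodes a chain of the chaperone that loads peptides on MHC class II (chr17:34139001-34140000, 13 positions). Control libraries held 50.8% (LT-HSC), 84.5% (ST-HSC) and 92.3% (MPP), and KI libraries 71.1, 88.4 and 97.4%. Summed over its 13 positions, 288 of 554 read counts were methylated in Control LT-HSC (52.0%, 95% Wilson interval 47.8 to 56.1%). In Control MPP 743 of 786 were (94.5%, 92.7 to 95.9%). A read that covers several positions counts at each, so these intervals may be too narrow. The level thus stood in the order LT-HSC, ST-HSC, MPP in both genotypes, and the log2 ratio was 3.97 higher in MPP (SE 0.64). Its limma adjusted p of 0.212 was the lowest of the members in this comparison. With a prior count of 5 in place of 1 the adjusted p was 0.0429, the only member called under that setting.

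H13, which encodes signal peptide peptidase, had 57.5, 89.5 and 98.9% in Control and 74.0, 98.3 and 98% in KI, 668 bases from its far end (limma adjusted p 0.514). A3galt2, a glycosyltransferase, had 74.7, 85.5 and 96.2% in Control and 70.7, 87.9 and 93.9% in KI (adjusted p 0.293). In both windows the LT-HSC libraries were below the other 4 by the mean over positions. On pooled reads this held for A3galt2 but not for H13, where KI LT-HSC had 89.7% and Control ST-HSC 86.8%, and the KI difference was 7.83 points in place of 24.0. Alpk3 had 70.4, 74.6 and 91.8% in Control and 71.9, 93.9 and 89.4% in KI. This window covers its start, whose sequence is shown above, and the ST-HSC libraries differed most between the genotypes. At the lncRNA Gm40231 MPP was 29.8 points above LT-HSC in Control and 9.31 points in KI, and on pooled reads 28.0 and 30.5 points. Hcn2, with 42 positions, had 79.6, 86.3 and 91.1% in Control and 78.0, 93.5 and 91.8% in KI.

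**Figure D5:**
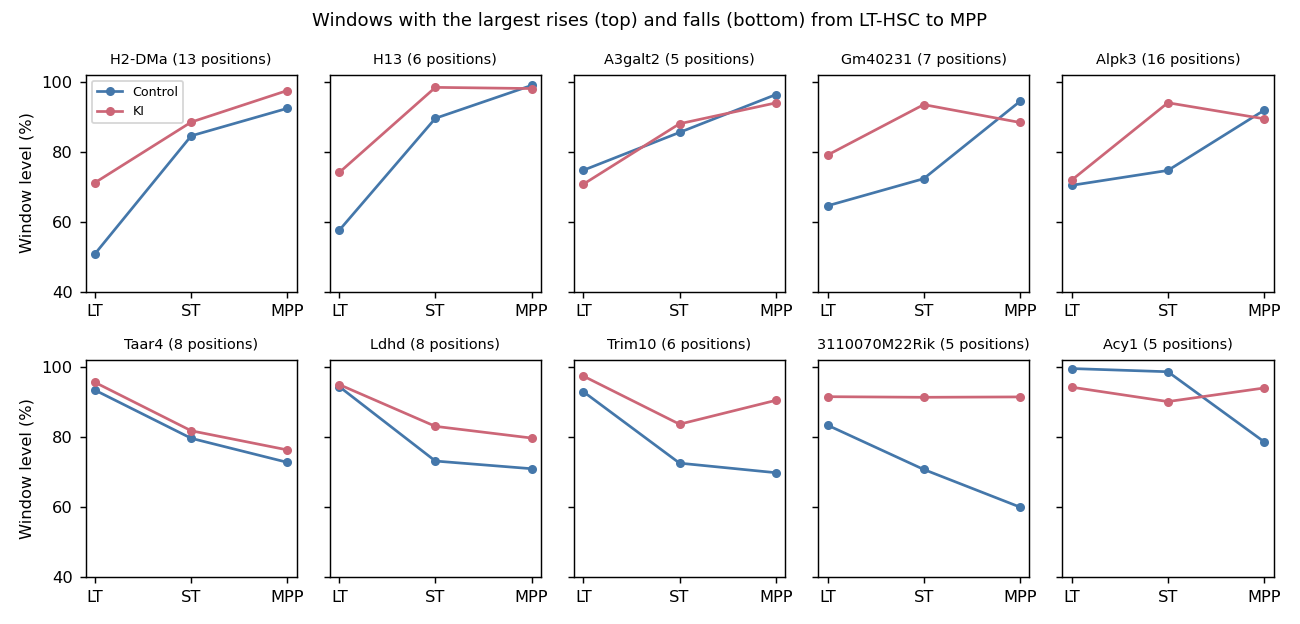
Level (y axis, %, from 40%) in LT-HSC, ST-HSC and MPP (x axis) for the windows with the 5 largest rises (top) and the 5 largest falls (bottom) with 1 sign in both genotypes, 1 line per genotype and 1 library per point. H2-DMa stands at 50.8% in LT-HSC and 92.3% in MPP of Control and at 71.1 and 97.4% in KI, and Taar4 at 93.3 and 72.7% and at 95.6 and 76.3%.

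The windows lower in MPP differed by less. Taar4, a trace amine receptor of the olfactory epithelium, had 93.3, 79.6 and 72.7% in Control and 95.6, 81.7 and 76.3% in KI (limma adjusted p 0.355), and both genotypes had the order LT-HSC, ST-HSC, MPP. Ldhd, D-lactate dehydrogenase, had 94.4, 73.1 and 70.9% in Control and 94.9, 83.0 and 79.7% in KI (adjusted p 0.385). These were the 2 windows at least 10 points lower in both genotypes. At Trim10, 3110070M22Rik and Acy1, an aminoacylase, the differences were -23.1, -23.4 and -20.9 points in Control and -6.93, -0.0660 and -0.230 points in KI.

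The ends of the range were as follows. Arhgef10l stood at 100% in every library at its far end, on 103 to 343 reads each, the only member to do so. Ccer2 and the cold-inducible RNA-binding protein Cirbp followed with 99.7%. Just above the threshold lay Prr23a2, the villin-like Vill and Gm38426, each at 80.2%. Just below lay Dohh, the deoxyhypusine hydroxylase, at 79.97%, Gm45915 at 79.9% and the smooth muscle leiomodin Lmod1 at 79.9%. These windows spread widely, with 72.1 to 88.2% over the libraries for Vill and 59.2 to 88.0% for Lmod1. In all, 51 members were at 80 to 85% and 48 gene-end windows at 75 to 80%.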

How the data were processed

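The 6 libraries came from eRRBS, bisulfite sequencing of restriction fragments rich in CpG, 1 for each of 2 genotypes and 3 cell types. Per the submitters' processing notes, the authors used Bismark 0.10.0, SAMtools 1.0 and methylKit 0.9.1 with mm10. Not given in the sources used here were duplicate removal and conversion rate. Columns of the deposited files were, per the file headers, coverage (the count of reads at a cytosine) and freqC and freqT (the percent of those reads with C or T). Each position had at least 10 reads, with library medians of 27 to 45 per position. Summed over positions, the coverage of a library came to 38284759 to 53884467, which counts a read at each position it covers. Coverage times percent gave whole methylated reads at 100% of positions within 0.01% of the coverage. Of 1352372 positions, 552338 were in all 6 libraries and were used. The strands of a CpG were kept apart.

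Window levels were means over positions. Gene ends and sequences came from RefSeq tables of GRCm38.p6, and all 106997 positions checked in promoters fell on a CG. limma 3.58.1 in R 4.3.3 was fitted on log2((methylated + 1)/(unmethylated + 1)) of all 24778 windows with genotype and cell type as terms. Fisher's exact test (scipy 1.17.1) compared pairs of libraries, and both tests were adjusted after Benjamini-Hochberg over all windows. Both were also run on simulated reads, drawn independently and without added spread between libraries. That run therefore does not give their error rates on the members. limma's spread is that between these single libraries, which may not be the spread between animals. Intervals are 95% Wilson intervals, and a count of 0 allows 3 counts of the total. Those on windows treat the counts at different positions as independent. Named were the 5 largest rises and falls with 1 sign per comparison, up to 4 members per list, the 3 with most positions, the 3 highest, the 3 on each side of 80% and any called by limma (none). The members, the lists and the tests were chosen with earlier results of these data known. Alternatives varied coverage, positions, thresholds, pooling, prior count, block and libraries. The X and Y chromosomes were not used here.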

Additional observations from a re-analysis of the deposited data

Results flagged for a closer look

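In 3 windows the differences between KI and Control pointed in opposite directions in different cell types, each called by Fisher's exact test on 1 library against 1. The difference between the cell types was not tested. At the far end of Bzw2, KI stood -11.2 points from Control in LT-HSC and 27.0 points above it in ST-HSC. At the start of Crhbp the differences were -10.5 points (LT-HSC) and 20.1 points (MPP). At the far end of Sh2b2 they were 22.0 points (LT-HSC) and -12.6 points (MPP).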

How the results depend on the processing

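No pairing by animal was possible because the labels give no replicate numbers and each genotype and cell type is 1 library. The limma fits had cell type or genotype as a block, and without the block 0 members were called, with an unadjusted p under 0.05 at 35 members for genotype and 57 for MPP against LT-HSC. With at least 20 reads per position 369 members were left. From LT-HSC to MPP 5 of these were then at least 10 points higher in both genotypes and 0 as much lower. Fisher calls (higher, then lower in KI) numbered 15 and 5 for LT-HSC, 13 and 2 for ST-HSC and 20 and 2 for MPP. With at least 10 positions, 143 members were left, with 1 window at least 10 points higher in KI, 3 rises and 0 falls from LT-HSC to MPP, Fisher calls of 8 and 2, 7 and 1, and 7 and 0 in the same order, and a Control mean of 93.6%. With a level over 90% in place of 80%, 0 windows were at least 10 points higher in KI, rises and falls from LT-HSC to MPP were 1 and 0, the Fisher calls were 10 and 11 for LT-HSC, 12 higher for ST-HSC and 16 and 2 for MPP, and the means were 96.3% in Control and 96.6% in KI. A difference of 5 points gave 11 windows with KI above Control in every cell type and 2 with KI below, 32 rises and 9 falls from LT-HSC to MPP, and Fisher calls of 73 and 55, 58 and 21, and 72 and 46. Pooling reads over positions gave 1 window at least 10 points higher in KI, Gas2l1, and 11 lower Fisher calls in ST-HSC. Windows that contain a gene end gave 1 window at least 10 points higher in KI. limma with a prior count of 5 called 1 window higher in MPP, H2-DMa. The share of all windows is not given for the counts under these alternatives, so they are not read as high or low. The counts named above fell where fewer windows were left or rose where the bar was lower. For pooling and the prior count the cause was not tested. The other 64 values kept their side of the threshold or nearly their size. They include the 0 limma calls of the genotype comparison under each alternative run. Among them was a rise from 2 to 3 in windows at least 10 points higher in KI, with at least 20 reads per position.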
